A study of Mus musculus with 9 samples.

Results

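Osteoblast and mineralized matrix genes were followed in mouse embryonic orofacial tissue, the tissue that builds the face and palate, on gestation days (GD) 12, 13 and 14. Each day had 3 arrays of total RNA, numbered 1 to 3 in the titles, and 1 array was 1 sample. Strain, sex, pooling and dissection are not given in the sources used here, and neither is whether the 3 samples of a day came from separate litters, so p-values measure only the spread between these samples. The genes asked for were Ibsp, Dmp1, Alpl, Spp1, Runx2 and Clec11a, each through every probe set whose array annotation gives that symbol and no other. Such probe sets were found for 4 of the 6 genes: 2 for Ibsp and 1 each for Dmp1, Alpl and Clec11a, together 5 of the 12488 probe sets in the table. Spp1 and Runx2 had no such probe set and were not analysed here.

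Membranous bone of the skull and jaws forms when mesenchymal cells condense, turn into osteoblasts and lay down a collagen matrix that then mineralizes. Alpl encodes tissue-nonspecific alkaline phosphatase, the enzyme that degrades the mineralization inhibitor pyrophosphate and appears early in osteoblast differentiation. Ibsp (bone sialoprotein) and Dmp1 (dentin matrix protein) belong to the SIBLING family, secreted acidic phosphoproteins that carry an integrin-binding motif and bind mineral; Ibsp is a gene of maturing osteoblasts, and Dmp1 is best known from osteocytes and dentin-forming cells. Clec11a encodes osteolectin, a secreted growth factor that promotes osteoblast formation from skeletal stem cells in adult mice. Runx2 is the transcription factor that osteoblast formation requires, and it binds the letters TGTGGT or close variants of them.

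Intensities were scaled between arrays by the authors, and array medians lay between 47.15 and 56.95. Array controls for actin carry probes at both transcript ends, and their 3'/5' ratio, which reflects RNA integrity, was 1.42 to 1.76 on GD12, 1.25 to 2.23 on GD13 and 1.37 to 2.44 on GD14. From GD12 to GD14 it was 1.54, 2.09 and 2.44 on the arrays numbered 1, and 1.76, 2.23 and 2.29 on those numbered 2. The arrays numbered 3 had 1.42, 1.25 and 1.37, the lowest ratio of each day. Of 14 listed markers of facial mesenchyme, 11 had a probe set and all 11 lay above the filter on dim probe sets, which is a mean log2 value equal to an intensity of 10.4. In bulk tissue, fewer cells of a type and less RNA per cell cannot be told apart.

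All 4 genes were higher on GD14 than on GD12, and each of the 5 probe sets passed limma's test over all 9326 probe sets tested (adjusted p under 0.05). Of all tested probe sets, 4.3% were called in that comparison and 3.24% were called higher. The 6868 genes, each taken at its brightest probe set, were ranked by log2 difference, with 3 added to intensities before the logarithm. Ibsp ranked 1, Dmp1 ranked 2, Clec11a ranked 26 and Alpl ranked 52. The size of the Dmp1 difference depends on the added value, and its rank with other added values was not determined. The 3 GD14 values lay above the 3 GD12 values for all 5 probe sets, a separation upwards that 12.1% of tested probe sets showed. Ibsp, Alpl and Clec11a had already risen by GD13, and in the step from GD13 to GD14 none of the 5 probe sets passed. All 5 probe sets passed the filter on dim values, but every GD12 value of Dmp1 lay under it, so Dmp1 entered the test only through its later values.

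**Figure D1:**
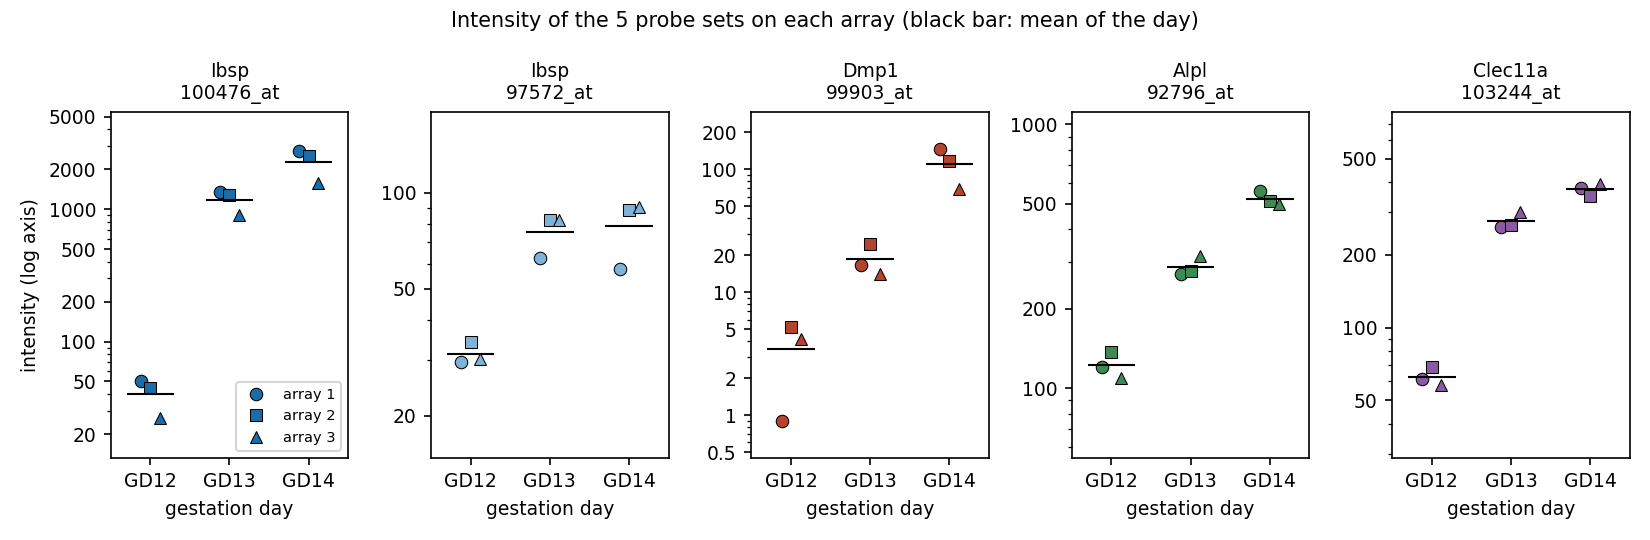
Intensity (log axis, scaled by the authors) of the 5 probe sets on each of the 9 arrays by gestation day; symbols mark the array number and black bars the mean of the day. On GD14 every value lies above every GD12 value of its probe set, and Ibsp 100476_at on the array numbered 3 is the lowest of each day.

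Ibsp, whose protein binds hydroxyapatite and collagen in bone, had the largest rise. On probe set 100476_at its intensity was 50.3, 44.3 and 26.5 on the GD12 arrays, 1352.7, 1286.6 and 898.3 on the GD13 arrays, and 2732.4, 2506.6 and 1565.8 on the GD14 arrays. The days did not overlap, and within each day the array numbered 3 was the lowest. GD13 exceeded GD12 by 4.79 on the log2 scale (SE 0.30, adjusted p = 0.000402, limma), the largest difference among the 6868 genes, which is 27.7-fold (95% interval 17.3 to 44.3). GD14 exceeded GD12 by a log2 of 5.71 (SE 0.30, adjusted p = 5.88e-05, limma). Between GD14 and GD13 the log2 difference was 0.92 (SE 0.30, 95% interval 0.24 to 1.60), with an adjusted p of 0.462 in limma, although the GD14 values lay above all GD13 values.

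The other probe set of Ibsp, 97572_at, gave a smaller log2 difference between GD14 and GD12. The GD12 arrays read 29.5, 34.1 and 30.2, the GD13 arrays 62.6, 82.0 and 82.1, and the GD14 arrays 57.6, 88.5 and 90.1. GD13 and GD14 overlapped, and both lay above GD12. The log2 difference was 1.19 for GD13 minus GD12 (SE 0.21, adjusted p = 0.0469, limma) and 1.23 for GD14 minus GD12 (SE 0.21, adjusted p = 0.0126, limma). Its 95% interval for GD14 minus GD12, 0.76 to 1.70, did not meet that of 100476_at, 5.03 to 6.39; the difference between probe sets was not tested. Within days they went opposite ways: on all 3 days the array numbered 1 was the lowest for 97572_at and the highest for 100476_at. After removal of the day means, Pearson's r between the 2 probe sets was -0.44 over 9 arrays, which share their day and scaling, against 0.91 before. The calls of 97572_at ended without single arrays. For GD13 minus GD12 its adjusted p went up to 0.195 without GD13 replicate 2, and for GD14 minus GD12 it was 0.0523 without GD12 replicate 1 and 0.0523 without GD14 replicate 2.

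Dmp1 was dim on GD12 and brightest on GD14. The GD12 arrays gave intensities of 0.9, 5.2 and 4.2, the GD13 arrays 16.6, 24.7 and 14.2, and the GD14 arrays 147.8, 116.3 and 69.0. All GD12 values lay under the filter intensity of 10.4, those of GD13 just above it, and those of GD14 well above both, without overlap. GD14 exceeded GD12 by a log2 of 4.15 (SE 0.36, adjusted p = 0.000472, limma). No fold is given, because its size depends on the value added before the logarithm: the log2 difference was 4.76 with 1 added and 3.04 with 11 added, in place of 3. The single steps, 1.78 for GD13 minus GD12 (SE 0.36, adjusted p = 0.0784) and 2.37 for GD14 minus GD13 (SE 0.36, adjusted p = 0.0899), did not pass in limma. With 3 added, the second of these steps was the second largest log2 difference among the 6868 genes.

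Ibsp and Dmp1 are neighbours. In the RefSeq annotation of GRCm38.p6, the protein-coding genes Dspp, Dmp1, Ibsp, Mepe and Spp1, all of the SIBLING family, follow each other on chromosome 5. Dspp, which encodes the main non-collagenous protein of dentin, had 1 probe set, with GD12 arrays at 6.4, 19.9 and 13.8, GD13 arrays at 3.5, 19.5 and 9.2, and GD14 arrays at 4.6, 15.7 and 2.7. Its days overlapped throughout, and its mean log2 value lay under the filter, so it was not tested. Mepe had no single-symbol probe set and was not analysed here.

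The 250 bases before each RefSeq start of this pair are shown because these neighbouring genes had the largest log2 differences. Windows were searched on both strands for TGTGGT (RUNX core), TAATTA (homeodomain core), TATAAA (core of the TATA box) and CCAAT (core of the box of that name), the last of them added after the sequences had been seen. Capitals mark matches, which did not overlap each other. On the gene's strand the reverse complement of TATAAA reads TTTATA, that of CCAAT reads ATTGG and that of TGTGGT reads ACCACA. Ibsp has 1 start, with the window at chr5:104299037-104299286, and Dmp1 has 2, at chr5:104197325-104197574 and chr5:104202367-104202616, all on the plus strand of GRCm38.p6.
Ibsp: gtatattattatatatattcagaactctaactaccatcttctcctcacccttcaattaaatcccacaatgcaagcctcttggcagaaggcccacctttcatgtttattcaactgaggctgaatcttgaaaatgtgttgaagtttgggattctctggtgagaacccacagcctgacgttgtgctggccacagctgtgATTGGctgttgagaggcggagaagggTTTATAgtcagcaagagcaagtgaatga
Dmp1, upstream start: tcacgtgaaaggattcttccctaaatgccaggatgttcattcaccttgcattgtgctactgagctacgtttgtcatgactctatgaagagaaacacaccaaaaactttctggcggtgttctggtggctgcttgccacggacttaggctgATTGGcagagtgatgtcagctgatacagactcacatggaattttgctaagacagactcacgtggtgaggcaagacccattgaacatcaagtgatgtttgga
Dmp1, downstream start: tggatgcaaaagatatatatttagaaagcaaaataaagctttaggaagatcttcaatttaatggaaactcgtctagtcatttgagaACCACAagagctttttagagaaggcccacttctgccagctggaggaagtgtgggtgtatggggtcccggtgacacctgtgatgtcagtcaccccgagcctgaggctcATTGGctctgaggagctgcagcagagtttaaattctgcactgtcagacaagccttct
Counted from -1, the base before the start, the Ibsp window held reversed TATA letters at -28 to -23 and reversed CCAAT letters at -54 to -50. The Dmp1 windows held reversed CCAAT letters at -101 to -97 (upstream start) and at -57 to -53 (downstream start), and the window of the downstream start also held reversed RUNX letters at -164 to -159. Of 32851 such windows in the table, 33.9% held CCAAT, 14.1% TGTGGT, 12.4% TATAAA and 4.84% TAATTA on either strand.

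Alpl rose between GD12 and GD14 and had the smallest difference of the 4 genes at their brightest probe sets. Intensities of the GD12 arrays were 120.6, 137.5 and 109.1, those of the GD13 arrays 271.2, 278.0 and 316.9, and those of the GD14 arrays 559.9, 511.3 and 500.4. The days did not overlap, and the spread within GD14 was narrow (SD 31.7 around a mean of 524, n = 3). GD14 exceeded GD12 4.21-fold (95% interval 3.32 to 5.34; log2 2.08, SE 0.15, adjusted p = 0.000215, limma). GD13 exceeded GD12 by a log2 of 1.22 (SE 0.15, adjusted p = 0.00907, limma), a call that ended without GD12 replicate 1 (adjusted p = 0.0519) or GD13 replicate 1 (adjusted p = 0.0522). GD14 minus GD13 was 0.85 (SE 0.15, 95% interval 0.51 to 1.20, adjusted p = 0.117, limma) and did not pass.

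Clec11a, the osteolectin gene, rose by GD13. GD12 arrays read 61.0, 68.6 and 57.7, GD13 arrays 260.8, 266.2 and 301.8, and GD14 arrays 378.2, 351.7 and 393.0, again with no overlap between days. GD13 exceeded GD12 4.27-fold (95% interval 3.41 to 5.35; log2 2.09, SE 0.14, adjusted p = 0.000402, limma). GD14 exceeded GD12 5.77-fold (95% interval 4.61 to 7.24; adjusted p = 6.35e-05, limma). The difference of GD14 from GD13, a log2 of 0.44 (SE 0.14, 95% interval 0.11 to 0.76, adjusted p = 0.467, limma), did not pass.

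The promoters of Alpl and Clec11a lie on the minus strand, on chromosomes 4 and 7, and the shown window of Clec11a is chr7:44306960-44307209. It is printed because its one match, CCAAT at -24 to -20, is in the forward direction, unlike those of Ibsp and Dmp1.
Clec11a: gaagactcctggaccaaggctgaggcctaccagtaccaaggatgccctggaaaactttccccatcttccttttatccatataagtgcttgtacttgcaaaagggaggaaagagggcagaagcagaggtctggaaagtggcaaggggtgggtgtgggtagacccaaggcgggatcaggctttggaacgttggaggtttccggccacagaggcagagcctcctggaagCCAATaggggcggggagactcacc
Alpl has 2 starts. The window of its upstream start, at chr4:137796385-137796634, was 68.4% G and C with 20 CG dinucleotides and held none of the 4 motifs, while that of the downstream start, at chr4:137766476-137766725, was 56.0% G and C and held reversed TATA letters at -192 to -187. The windows of the other 3 genes were 43.6% to 55.6% G and C with 2 to 5 CG dinucleotides, where the median of all windows was 52.4%.

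The first daily step held most of the log2 rise of some of these genes and less of others. For GD13 minus GD12, 4 of the 5 probe sets passed, where 0.643% of all tested probe sets were called and 0.568% were called higher, and all 5 had GD13 values above GD12 without overlap (10.1% of tested probe sets did). As a share of the log2 difference between GD14 and GD12, the step to GD13 held 83.8% for Ibsp 100476_at, 82.8% for Clec11a, 58.8% for Alpl and 42.9% for Dmp1. For Ibsp 97572_at it held 96.7%. The log2 share of Dmp1 depends on the value added before the logarithm. Its step to GD13 was 2.27 of 4.76 with 1 added and 1.03 of 3.04 with 11 added. As a share of the intensity difference, the step to GD13 held 51.1% for Ibsp 100476_at, 93.3% for Ibsp 97572_at, 68.6% for Clec11a, 41.4% for Alpl and 14.0% for Dmp1. For GD14 minus GD13, 0 of the 5 probe sets passed in limma and 4 had an unadjusted p under 0.05. In that comparison 0.0429% of tested probe sets were called, 0.0322% higher, and 670 had an unadjusted p under 0.05. GD14 lay above GD13 without overlap for 4 of the 5, where 7.14% of tested probe sets did.

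Whether the steps differed was tested as the second log2 difference minus the first. It was -3.87 for Ibsp 100476_at (SE 0.52, 95% interval -5.04 to -2.69, adjusted p = 0.200, limma), the lowest of all tested probe sets, and -1.66 for Clec11a (SE 0.25, 95% interval -2.22 to -1.09, adjusted p = 0.231, limma). Neither passed, and 0 of 9326 probe sets (0%) did in limma, where 453 had an unadjusted p under 0.05. With the replicate number as a block, the adjusted p of Ibsp 100476_at was 0.00529 and that of Clec11a 0.404. Alpl (-0.37, SE 0.26, adjusted p = 0.957), Ibsp 97572_at (-1.15, SE 0.36, adjusted p = 0.953) and Dmp1 (0.59, SE 0.62, adjusted p = 0.965) also did not pass in limma.

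**Figure D2:**
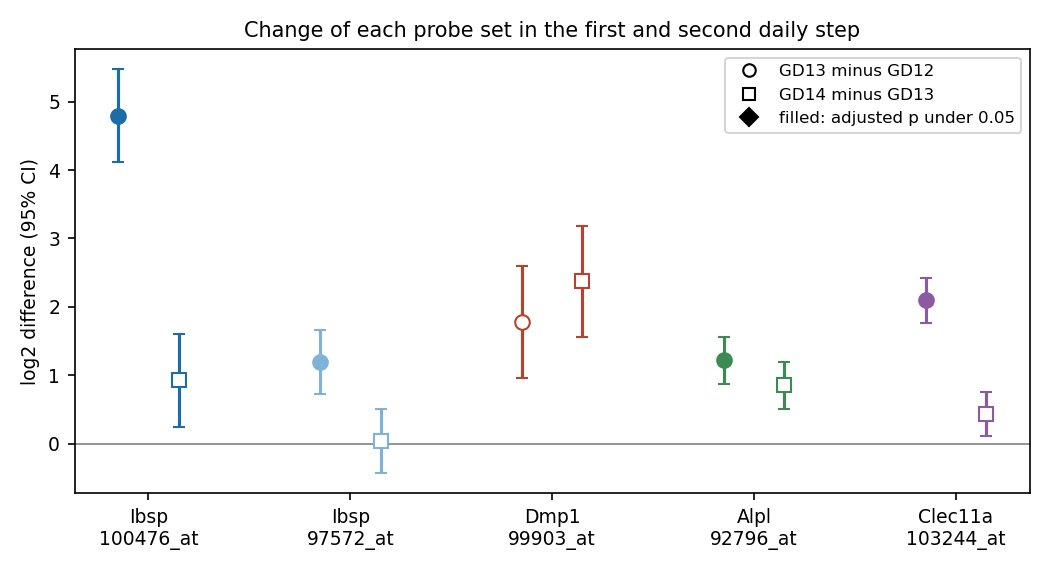
Log2 difference of each probe set with its 95% interval from limma, for GD13 minus GD12 (circles) and GD14 minus GD13 (squares); filled symbols passed at an adjusted p under 0.05. Ibsp 100476_at and Clec11a have their larger difference in the first step (4.79 and 2.09), Dmp1 in the second (2.37).

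**Figure D3:**
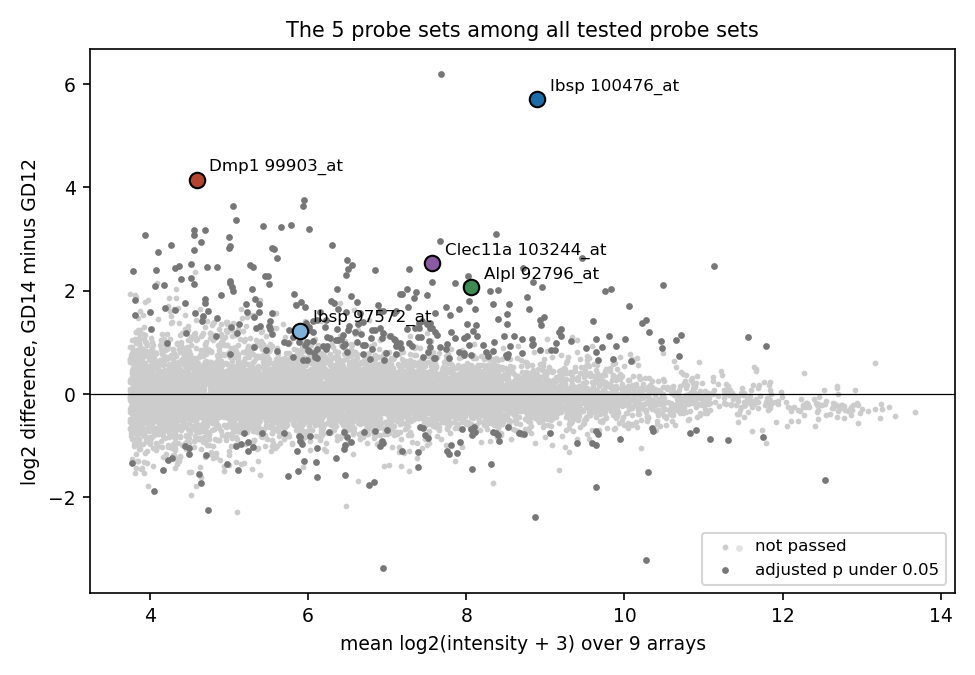
Log2 difference of GD14 minus GD12 against the mean log2(intensity + 3) over the 9 arrays for all 9326 tested probe sets, with the 5 probe sets of the 4 genes in colour and those at an adjusted p under 0.05 in dark grey. Ibsp 100476_at (5.71) and Dmp1 (4.15) lie near the top, and Ibsp 97572_at (1.23) among many others.

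The arrays of a day varied in ways the genes only partly shared. Over the 9 arrays, Pearson's r between pairs of the 5 probe sets was 0.75 to 0.99, with the rise over days included. After removal of the day means it was -0.44 to 0.82 over 10 pairs, highest for Alpl with Clec11a, and 0.28 for Ibsp 100476_at with Dmp1. On the arrays numbered 3, Ibsp 100476_at was 0.51, 0.37 and 0.49 under the mean log2 of its day on GD12, GD13 and GD14. Dmp1 was the lowest there on GD13 and GD14, while Clec11a was the highest there on GD13 and GD14. These arrays also had the lowest actin ratios. Fitted with the actin ratio as covariate, Ibsp 100476_at had a log2 difference of 4.59 (SE 0.21) for GD13 minus GD12. Without the covariate it was 4.79 (SE 0.30). The part of RNA integrity in the deviations within days was not tested. With the arrays numbered 3 left out on all days, GD14 minus GD12 still passed for 4 of the 5 probe sets, with log2 differences of 5.71, 4.57, 2.03 and 2.44 for Ibsp 100476_at, Dmp1, Alpl and Clec11a. In the same fit Ibsp 97572_at had 1.10 (adjusted p = 0.106, limma), and for GD13 minus GD12 Ibsp 100476_at and Clec11a passed while Alpl did not (adjusted p = 0.0903, limma).

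RNA of most other tested genes listed for bone matrix proteins also rose. The list was chosen with earlier results of these data known. Bglap, Bglap2, Mepe and Tnn of this list had no single-symbol probe set. Dspp and Ahsg lay under the filter and were not tested. Of 17 listed genes 11 were tested, of which 8 rose (also 8 with the arrays numbered 3 left out), 0 fell and 3 did not pass for GD14 minus GD12, with a median log2 difference of 1.43. Over all 6868 genes 248 rose and 67 fell, and the median was -0.01. Dcn, the collagen-binding proteoglycan decorin, was 1669.7, 1481.9 and 1496.8 on GD14 against 287.5, 219.8 and 232.8 on GD12 (log2 2.64, SE 0.16, adjusted p = 7.53e-05, limma). Col1a1, a chain of type I collagen and so of the main scaffold of bone, was 6321.0, 5541.2 and 5904.2 on GD14 against 1158.3, 1175.0 and 859.8 on GD12 (log2 2.48, SE 0.20, adjusted p = 0.000324, limma). Ogn, the proteoglycan osteoglycin, and Lum, the proteoglycan lumican, rose by a log2 of 1.88 and 1.21.

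None of these 4 matrix genes passed the test of the second step minus the first. Dcn (1.89), Ogn (1.07) and Lum (1.01) passed for GD13 minus GD12, as Ibsp, Alpl and Clec11a did. Without single arrays the calls of Ogn and Lum in that step ended, with adjusted p up to 0.0794 (without GD12 replicate 1) and 0.138 (without GD13 replicate 2), and with the arrays numbered 3 left out all 3 calls ended (0.0693 for Dcn, 0.0903 for Ogn, 0.114 for Lum). Col1a1 had a log2 difference of 0.78 in that step (adjusted p = 0.166, limma) and passed for GD14 minus GD13 (1.71, adjusted p = 0.0426, limma), a call that ended with the replicate block (adjusted p = 0.0825), with the arrays numbered 3 left out (0.171) and without single arrays (up to 0.22, without GD13 replicate 2). Col1a1 was also measured by a dimmer probe set (log2 1.42, adjusted p = 0.0165, GD14 minus GD12) and Ogn by another (1.55, adjusted p = 0.00671), both in the same direction. The other probe sets of Col1a2 (0.14, adjusted p = 0.791) and Bgn (0.71, adjusted p = 0.106), whose brightest probe sets are among the 8 rises, did not pass in limma. Sparc and Mgp, also among the 8, lost their calls without single arrays (adjusted p up to 0.0949 and 0.0868, each without GD14 replicate 1). With the replicate block Omd passed as well for GD14 minus GD12 (adjusted p = 0.0465, limma), which makes 9 rises. For GD13 minus GD12 the block gave 5 rises in place of 3, with Sparc (adjusted p = 0.0287) and Mgp (adjusted p = 0.0257) added in limma.

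Transcription factors of the osteoblast programme did not pass in either direction. Of 12 listed osteoblast transcription factors 9 were tested, and 0 rose and 0 fell for GD14 minus GD12 in limma (1 higher and 4 lower at an unadjusted p under 0.05; median -0.32; with the arrays numbered 3 left out, 0 rose and 1 fell). Cbfb, the partner subunit that RUNX proteins need for DNA binding, was 2350.5, 2343.3 and 2672.2 on GD14 against 3194.3, 3211.6 and 3162.2 on GD12 (log2 -0.38, adjusted p = 0.182, limma). Twist1, a mesenchymal factor that restrains RUNX2, had a log2 difference of -0.32 (adjusted p = 0.356, limma). With the arrays numbered 3 left out, Sox4, a factor of progenitor cells, fell by 1.61 (adjusted p = 0.0393), the single call of this list in that fit; it is named after its values were seen.

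Genes listed for mineralization and phosphate handling, a list without Alpl that also held annexins, did not pass either where tested. Enpp1, Phospho1, Slc20a2 and Sost of this list had no single-symbol probe set and were not analysed here. Of 11 listed genes 7 were tested, with 0 rises and 0 falls in limma, 1 higher at an unadjusted p under 0.05 and a median of 0.11. The brightest were Anxa5, a calcium-binding annexin of matrix vesicles (log2 0.27), and Ppa1, a cytosolic pyrophosphatase (-0.09). Among osteogenic signals and their receptors, 21 of 23 listed genes were tested, 1 rose and 0 fell (2 higher and 1 lower at an unadjusted p under 0.05; median 0.02). The riser was Ihh, a hedgehog signal of growth plate cartilage that induces osteoblasts, at 63.9, 59.1 and 61.4 on GD14 against 20.7, 26.0 and 31.4 on GD12 (log2 1.17, SE 0.17, adjusted p = 0.00568, limma). Of 10 receptors and partners of the 4 genes' proteins 5 were tested and 0 passed for GD14 minus GD12 in limma, with 0 at an unadjusted p under 0.05. Itgb1 (log2 -0.05) and Itgav (-0.13), integrin chains that bind matrix proteins, were the brightest, and their days overlapped.

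**Figure D4:**
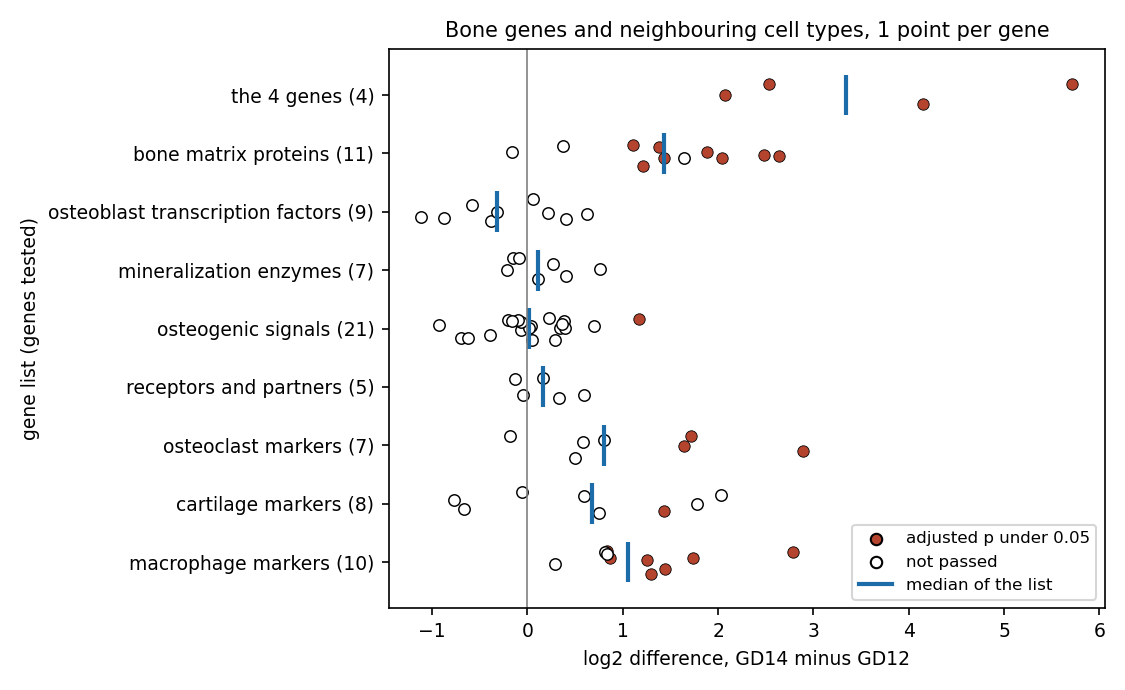
Log2 difference of GD14 minus GD12 for each tested gene (1 point, brightest probe set) of the 4 genes and 8 lists, with the number tested in brackets; filled points passed at an adjusted p under 0.05 and blue bars are medians. Points of the bone matrix list lie mostly right of 0 (median 1.43), those of the transcription factor (-0.32) and signal (0.02) lists around it.

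Some markers of other cells found in forming bone also rose, where 248 of all 6868 genes rose. Of 11 listed osteoclast markers 7 were tested, and 3 rose, 0 fell and 4 did not pass for GD14 minus GD12: Ctsk, the collagen-degrading cathepsin K (log2 1.65), Acp5, tartrate-resistant acid phosphatase (1.72), and Mmp9, a gelatinase (2.89). The summed intensity of the 7 was 902 to 1120 on GD14, 746 to 979 on GD13 and 415 to 463 on GD12. Calcr, the calcitonin receptor, lay under the filter on all days. Ctsk and Mmp9 passed already for GD13 minus GD12 (1.35 and 2.77). The Mmp9 call in that step ended without GD12 replicate 1 (adjusted p = 0.0519), and both calls ended with the arrays numbered 3 left out (adjusted p = 0.0783 for Ctsk and 0.0917 for Mmp9). Another probe set of Mmp9 did not pass (log2 0.38, adjusted p = 0.632, GD14 minus GD12).

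Of 10 macrophage markers, all tested, 7 rose and 0 fell between GD12 and GD14, with summed intensities of 947 to 1152 on GD14, 555 to 663 on GD13 and 441 to 486 on GD12. Mrc1, the mannose receptor, had the smallest adjusted p (log2 1.74, adjusted p = 0.0011, limma). The other probe set of C1qb, a gene among the 7, did not pass (log2 -0.003, adjusted p = 0.998, limma). With the arrays numbered 3 left out, 2 of the 10 passed, and without single arrays the calls of Cd68 (adjusted p up to 0.116, without GD14 replicate 1) and C1qc (up to 0.0873, without GD12 replicate 2) ended. The list's median difference was 0.28 in the step to GD13 and 0.86 in the step to GD14, while that of the osteoclast list was 0.55 and 0.25. Cartilage markers had 1 rise, Col11a1 (log2 1.44), and 7 that did not pass among 8 tested of 12 listed. The 8 summed to 1096 to 1711 on GD14 against 828 to 1016 on GD12. Col11a1 alone had means of 810 on GD14 and 296 on GD12, so the sum largely follows that gene. Of those that did not pass, Acan (2.03), Matn1 (1.78), Hapln1 (0.75) and Col9a2 (0.60) were higher. Col9a1 (-0.77), Col10a1 (-0.66) and Col9a3 (-0.06) were lower. The 1 probe set of Col2a1, the defining collagen of cartilage, lay under the filter on all days, with day means of at most 9.17. Whether it responds to its transcript was not tested, so its low values do not show that Col2a1 RNA was absent.

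Markers of further tissues also changed between GD12 and GD14. Skeletal muscle markers had 5 rises among 9 tested genes and summed to 1728 to 2695 on GD14 against 742 to 890 on GD12, and epithelial markers had 1 rise, Krt8, among 5. All 3 embryonic globins fell (median log2 -3.21), Mapt was the 1 fall among 7 neuronal markers, and Msx1 the 1 fall among 11 facial mesenchyme markers. Other probe sets of Mapt did not pass in limma (log2 -0.96, adjusted p = 0.0761, and -0.28, adjusted p = 0.831). Nor did the other probe set of Myl4, a gene among the 5 muscle rises (0.06, adjusted p = 0.921). Calls ended without single arrays for Tnnc1 of the muscle list (adjusted p up to 0.157, without GD14 replicate 1), Mapt (up to 0.111, without GD12 replicate 1) and Msx1 (up to 0.0673, without GD14 replicate 1). With the replicate block there were 3 neuronal falls (Elavl4 and Stmn2 added), 3 facial mesenchyme falls (Alx4 and Dlx1 added) and 2 epithelial rises (Epcam added). With the arrays numbered 3 left out there were 4 muscle rises, Tnnc1 no longer passing (adjusted p = 0.0579), 3 neuronal falls and 2 facial mesenchyme falls. Tooth matrix markers had 0 calls among 3 tested, also at an unadjusted p under 0.05, with Ambn at 43.5 to 62.8 on GD14 and 35.7 to 51.3 on GD12. The part of changing shares of bone cells, osteoclasts, macrophages and other tissues in the rise of the 4 genes was not tested.

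Genes with the most similar course were sought by Pearson's r of the log2 values over the 9 arrays, among 6864 other genes, taking the 3 highest for each of the 4. For Clec11a these were Ctsk (r = 0.995), Rpl39l, a ribosomal protein paralogue, and Hspa1b, an inducible heat shock protein (0.983 each). For Ibsp they were Anxa1, an annexin (0.994), Ctsk (0.990) and Lum (0.987). Ctsk was thus among the 3 highest for both, with 323.7, 350.6 and 371.6 on GD13 and 133.9, 144.7 and 127.1 on GD12. For Alpl they were Ifitm3, an interferon-induced membrane protein, Aldh1a1, a retinaldehyde dehydrogenase (0.993 each), and Cav1, the caveolae protein (0.992). For Dmp1 they were Anxa8, another annexin (0.973), Gas6, a ligand of TAM receptors (0.971), and Clic3, a chloride channel family member (0.966). The 11 genes so named all rose for GD14 minus GD12, where 248 of all 6868 genes rose. They were picked for a course like that of rising genes, so their rise follows from the choice and is no separate result. An r over 0.95 was reached by 43 genes for Ibsp, 26 for Dmp1, 65 for Alpl and 46 for Clec11a, so the named genes are the upper end of larger groups, and all points share day and scaling.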

How the data were processed

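Total RNA of 9 samples was measured on oligonucleotide arrays. The deposited values are linear intensities per probe set; the authors had scaled them, since the mean without the lowest and highest 2% was 149.98 to 150.58 on every array, as the deposited values show. Image software and further steps are not given in the sources used here. No column of another sample was present. Probe sets were named from the array annotation, which gave a single symbol for 10833 of them. RefSeq's GRCm38.p6 gene table held the gene ID of 10817 of these probe sets and changed 0 symbols.

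Intensities were taken to log2 after adding 3. The 66 control probe sets and those with a mean log2 at or under the 25th percentile were left out, leaving 9326. limma 3.58.1 in R 4.3.3 fitted 3 day means over all 9 arrays, with Benjamini-Hochberg adjustment over all tested probe sets; the script was tested on simulated data. The contrasts were GD13 minus GD12, GD14 minus GD13, GD14 minus GD12, and the later daily step minus the earlier one. Folds are 2 to the power of the log2(intensity + 3) difference. Python 3.11.15, numpy 2.4.6, pandas 2.3.3 and matplotlib 3.10.9 made the tables and plots.

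Named genes were every probe set of the members, from each list up to 4 passing genes of smallest adjusted p in GD14 minus GD12 (otherwise the 2 brightest), the 3 genes most correlated with each member, and the SIBLING neighbours. For gene counts the brightest tested probe set stood for its gene. Members and lists were chosen with earlier results of these data known. Promoter windows are RefSeq's, GRCm38.p6; all 4 genes matched.

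Arrays that share a number had correlated deviations from their day means (r of 0.19 to 0.42 over 9 pairs, across probe sets), so the titles' numbers were taken to pair the arrays; the fit without a block was kept as the reported one. Alternatives were other scalings, added values, filters, variance models, array weights, the block, the actin ratio as covariate, the compared days alone and omission of arrays. The number of arrays limits the precision.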

Additional observations from a re-analysis of the deposited data

Results flagged for a closer look

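For Ibsp 100476_at the change differed between the daily steps when the replicate number was a block. The step from GD13 to GD14 minus the step from GD12 to GD13 was -3.87 on the log2 scale (adjusted p = 0.00529, limma). Without the block the same difference had an adjusted p of 0.200 in limma. Both steps were rises without overlap between days, which does not show whether the steps differed. In intensity units the later step was 1089 and the earlier one 1139; their difference was not tested on that scale.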

How the results depend on the processing

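For GD14 minus GD12, Ibsp 100476_at, Clec11a and Alpl kept direction and call under all 21 alternatives, and Dmp1 under the 20 that tested it (the filter at the median left it out); the log2 difference of Ibsp 100476_at stayed between 5.38 and 5.96. The count of called probe sets, 401, was 615 with array weights, 620 with the replicate block (387 of the 401 shared), 223 with the compared days alone and 176 to 392 without single arrays; 4 or 5 of the 5 member probe sets passed without single arrays. For GD13 minus GD12, the 60 calls became 35 with no filter, 94 with the filter at the median, 115 with trend and robust variances, 201 with array weights, 34 with the compared days alone, 17 to 59 without single arrays and 10 with the arrays numbered 3 left out, an alternative added after the data were seen; member calls were 2 to 4 without single arrays and 2 in that last fit. For GD14 minus GD13, the 4 calls (3 higher, 1 lower) became 2 with quantile normalization (1 higher, 1 lower) and with 1 added, 16 with 11 added, 0 with no filter, 19 with the filter at the median, 26 with trend and robust variances, 11 with array weights, 2 with the compared days alone, 0 to 4 without single arrays and 0 with the arrays numbered 3 left out. Member calls there were 1 with 11 added (Dmp1), 1 with the filter at the median (Alpl), 2 with trend and robust variances (both) and 1 with array weights (Dmp1), and 0 without single arrays. For the second step minus the first, 2 probe sets passed with the filter at the median, 2 with trend and robust variances, 1 with array weights and 1 with the replicate block; member calls were 1, 1, 0 and 1, each of them Ibsp 100476_at, and 0 without single arrays. The GD14 minus GD13 difference of Ibsp 97572_at, 0.04, had the other sign in 5 of 21 alternatives. These were array weights (-0.0055), the arrays numbered 3 left out (-0.004) and some of the omissions of single arrays. Over all omissions of single arrays it ranged from -0.0844 to 0.2428. Dmp1 passed for GD13 minus GD12 with quantile normalization and array weights. Besides the values above, the block changed no other call of the members. The causes of these changes were not tested.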
